A study of Mus musculus with 2 samples.

Results

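The nucleolar ribosome biogenesis genes described here are 42 named genes, all of them found among the 32285 gene rows of a single-cell RNA sequencing matrix from mouse thymus. The list was given by gene name, and its rule holds no measured value, but it was proposed with earlier results of these data known. Of the 42 genes, 41 reached 20 CPM over all cells used, CPM being the count of a gene scaled to a total of 1000000, and Rrp12 did not. All 42 are kept in the counts below.

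The cells came from T-KO mice, in which floxed Kidins220 (Kidins220 fl/fl) was deleted by a Cre transgene under the proximal Lck promoter, and from Ctrl mice, on a C57BL/6 background. This Cre acts early in the T lineage, so other cells that pass a sort keep the gene, and the mice received no treatment. Cells of 4 thymi per genotype were pooled, which removes the differences between animals, and their individual ages were not given. Stage 0 invariant natural killer T (iNKT) cells were sorted as TCRβ+ CD1d tetramer+ CD24+ NK1.1-, and stage 3 cells as TCRβ+ CD1d tetramer+ NK1.1+ CD24- CD44+, each in duplicate, which gave 8 populations. The sources do not settle whether the duplicates were separate pools or repeat sorts of the same pool, so the spread within a set of 4 rows may be technical. Each population was stained with its own oligonucleotide-tagged antibody (hashtag) before all were read as a single droplet library.

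The 8 hashtag rows in use are numbered 11 to 18, whereas the labels pair the populations with hashtags of other numbers, and nothing read here ties the one numbering to the other. The rows are therefore named by number only, no row was assigned a genotype or a stage, and no test between rows was made. Odd and even rows are compared as sets of 4 values. In 16179 barcodes, 10007 cells had at least 1000 genes, at most 5% mitochondrial unique molecular identifiers (UMIs) and 1 dominant hashtag, 4249 on the odd and 5758 on the even rows. Median UMIs per cell were 6500 to 8068 on the odd rows and 3258 to 3804 on the even rows. Klrb1c, which encodes NK1.1, was at 4.78 to 6.57 CPM on the odd rows and 328 to 444 CPM on the even rows, and Trav11, the variable segment of the invariant receptor, was at 0.205 to 1.14 and 39.5 to 56.5 CPM. In the odd rows the summed myeloid markers reached 9730 to 27962 CPM and the B cell markers 769 to 1845 CPM, against 672 to 1245 and 249 to 287 CPM in the even rows, so the label of iNKT cells does not hold for a large part of the odd rows. Kidins220 itself was at 19.7, 21.03, 14.5 and 13.9 CPM in rows 11, 13, 15 and 17 and at 28.4, 35.2, 17.5 and 20.4 CPM in rows 12, 14, 16 and 18. These 5′ reads need not lie in the deleted part, so they check no label.

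Ribosomes are built in the nucleolus. RNA polymerase I transcribes the ribosomal RNA precursor, small nucleolar ribonucleoproteins (snoRNPs) modify it, and assembly factors of the small subunit processome and of the pre-60S particle fold, cut and export it together with ribosomal proteins. Cells raise these factors when they grow and divide, many of the genes are classic targets of the transcription factor Myc, and in the thymus proliferating precursors are known for large nucleoli.

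The promoters of the members were read because the members moved together within the even rows, as described below. RefSeq windows of GRCm38.p6, from 250 bases before to 50 bases after the transcription start, were found for 36 members. The letters CACGTG, the E-box to which Myc and Max bind in textbook accounts and which reads the same on both strands, were present in 9 of these 36 members (25%) and in 8.09% of the 27025 genes with a window. The letters CAGCTG, another E-box that also reads the same on both strands and shares no more than its ends with CACGTG, were present in 5 members (13.9%) and in 18.3% of all genes. The genes with a window were taken whatever their level, and CACGTG holds a CG pair that CAGCTG lacks. No background matched for level or base content was counted. The 9 stretches are shown with CACGTG in capitals, in the direction of transcription, to let the flanks be compared.
Imp4: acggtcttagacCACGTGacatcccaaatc
Nop2: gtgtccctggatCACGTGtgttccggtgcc
Mettl1: agctcggctctcCACGTGgactgcgtggca
Pes1: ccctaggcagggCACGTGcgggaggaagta
Pno1: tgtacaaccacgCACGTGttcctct
Mybbp1a: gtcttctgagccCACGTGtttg
Tsr1: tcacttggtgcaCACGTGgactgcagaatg
Ipo4: tgtcggagtctcCACGTGccgatcctcccc
Wdr43: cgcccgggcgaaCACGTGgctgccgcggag

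The stretch of Imp4 lies at chr1:34439696-34439725 and that of Nop2 at chr6:125131811-125131840, with the motif beginning 121 and 60 bases before the start. The other 7 motifs lie just after the start, where Pes1 (chr11:3963965-3963994) has it nearest, at base 3 of the transcript. Those of Mettl1 (chr10:127041950-127041979), Tsr1 (chr11:74898092-74898121), Mybbp1a (chr11:72441355-72441376) and Wdr43 (chr17:71616220-71616249) are on the plus strand, and those of Pno1 (chr11:17211540-17211564) and Ipo4 (chr14:55635653-55635682) on the minus strand. A match of letters is no measured binding site, and its part in the levels was not tested.

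The first comparison set the odd against the even rows. The 42 genes together took a larger part of the RNA in the odd rows. Lower in every even row than in any odd row were the abundant nucleolar proteins, the snoRNP genes other than Gar1 and polyamine synthesis. So were 8 of 15 pre-60S factors, and 35.8% of the 6745 genes with at least 20 CPM were lower in this way. The small subunit factors mostly overlapped, and Ddx21 and Imp4 were higher in the even rows. Summed over the members, the level was 4924, 6414, 7240 and 7479 CPM in rows 11, 13, 15 and 17, and 4292, 4230, 4346 and 4038 CPM in rows 12, 14, 16 and 18. The odd rows were spread widely, row 11 being the lowest, whereas the even rows lay close together and below all of them. The exact Poisson interval of a row, which covers counting error only, was narrow beside these gaps (4880 to 4968 CPM in row 11 and 4261 to 4432 CPM in row 16, the smallest row). The log2 ratio of the medians, even over odd, was -0.68. It was -0.29 when cells with over 4000 genes were left out.

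The distribution over cells differed less than the sums. The median cell gave 0.362 to 0.470% of its UMIs to the members in the odd rows and 0.353 to 0.393% in the even rows, ranges that overlap, with a log2 ratio of medians of -0.26. The upper quartile of cells was at 0.723 to 0.841% in rows 13, 15 and 17 and at 0.495 to 0.536% in the even rows, with row 11 (0.532%) among the latter. With every cell thinned to 2000 UMIs, which left out 768 cells below that depth, the summed level was 4446 to 5970 CPM on the odd and 3868 to 4231 CPM on the even rows.

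The mitotic genes also differed between the odd and even rows. The 20 genes of a G2/M list (Mki67, Top2a, Ccnb1 and others) summed to 2456 to 3838 CPM in the odd and 460 to 735 CPM in the even rows, and at least 2 of their UMIs were found in 62.1 to 71.0% of odd-row and 34.4 to 37.3% of even-row cells. In the 1401 odd-row and 3727 even-row cells below that limit, a division made after the values were seen, the members summed to 3376 to 4171 CPM in the odd rows and to 3999 to 4298 CPM in the even rows. There the log2 ratio of medians was 0.17, with the sign turned, 3 members (Mettl1, Pes1 and Pno1) were lower in the even rows without overlap and 12 were higher. In the same cells 19.6% of the 6745 genes tested over all cells were lower and 20.3% higher. A log2 ratio of the same sign, at 0.13, was found after thinning to 2000 UMIs in cells that had no G2/M UMI before thinning. That limit was not matched for depth, and the odd rows had more UMIs per cell. The limit of 2 UMIs was not matched for depth either. Below it, median UMIs were 3751.5 to 4401 in odd-row cells, against 6500 to 8068 in all of them, and 3208 to 3692.5 in even-row cells. The cell types changed as well, since of the groups defined below Rag1 kept 38 of 418 cells and Cd79a 391 of 810. The part of mitosis, depth and cell type in the difference between the sets of rows was not tested.

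**Figure D1:**
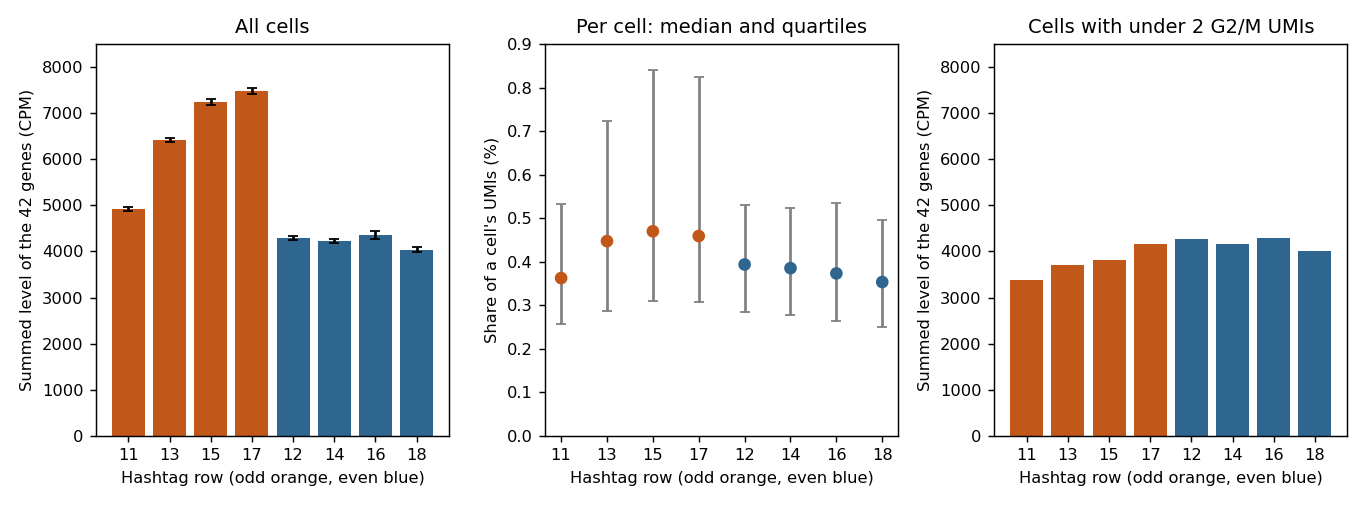
The left panel plots the summed level of the 42 genes in CPM in each hashtag row, with exact Poisson 95% intervals, the middle panel the per-cell share of UMIs in percent (point, median; bar, quartiles) and the right panel the summed level in cells with fewer than 2 UMIs of the G2/M list. The 4 odd rows stand above the 4 even rows on the left, at 4924 to 7479 against 4038 to 4346 CPM, and at 3376 to 4171 against 3999 to 4298 CPM on the right.

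Gene by gene, 23 of the 42 members (54.8%) were lower in all 4 even rows than in any odd row, where 35.8% of the 6745 genes with at least 20 CPM were. These calls rest on row values alone. For some of the members called lower, Ppan, Nop2, Wdr74, Rrp1b and Dkc1 among them, the Poisson intervals of an odd and an even row met. Another 2 members were higher in the even rows without overlap (4.76%, against 26.7% of all genes tested), and 17 overlapped. The median log2 ratio was -0.57 over the members and -0.11 over all genes tested, and the even median was the lower of the pair for 39 members. In 41 of the 42 members row 11 was the lowest odd row, and without it 35 members were lower and 2 higher in the even rows, where 43.4 and 29.3% of all genes were. Row 11 also held the largest Cst3 group, as defined below (390 of 1176 cells). With the cells past the Cd79a and Cst3 limits left out of all rows, 37 members were lower and 1 higher, where 45% and 26.7% of all genes were. The sums were then at 7216 to 8674 CPM on the odd and 4037 to 4357 CPM on the even rows. Without the cells of over 4000 genes 9 members were lower and 3 higher, against 29.3 and 22.7% of all genes, so the members' share there was not above that of all genes.

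Of the snoRNP genes 6 of 7 were lower in the even rows, with a median log2 ratio of -0.76. Fibrillarin (Fbl, ENSMUSG00000046865), the methyltransferase of box C/D snoRNPs, was at 290, 330, 377 and 373 CPM in rows 11, 13, 15 and 17 and at 257, 250, 250 and 219 CPM in rows 12, 14, 16 and 18. Fbl fell least of the role, and its lowest odd row stood clear of its highest even row. Nolc1, the nucleolar chaperone of snoRNPs, was at 137, 193, 214 and 221 CPM in the odd and 113, 126, 98.1 and 109 CPM in the even rows. The box C/D core genes Nop56 and Nop58 and the box H/ACA genes Dkc1, the pseudouridine synthase, and Nhp2 lay between them, with log2 ratios from -0.82 to -0.71. Gar1, the remaining H/ACA core gene, had a log2 ratio of -0.76 and overlapped by a single row, since row 11 (92.3 CPM) was below row 16 (93.3 CPM).

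The small subunit factors behaved differently, with 1 of 9 lower, 1 higher and 7 overlapping, and a median log2 ratio of -0.21. Pno1, a late pre-40S factor, was lower, at 55.2 to 71.5 CPM in the odd and 32.0 to 38.0 CPM in the even rows. Imp4 (ENSMUSG00000026127, chr1:34439829-34445747 in GRCm38.p6, as for the genes that follow), a component of the U3 snoRNP, was higher in the even rows, at 74.7, 63.4, 69.6 and 72.0 CPM in rows 12, 14, 16 and 18 against 50.8, 54.9, 56.0 and 60.2 CPM in rows 11, 13, 15 and 17. The highest odd row of Imp4 was near its lowest even row. Heatr1, Tsr1 and Bysl, which act at the early processome, on late pre-40S particles and in 40S maturation, had log2 ratios of 0.04, -0.02 and -0.04. Wdr43, Rrp12, Nop14 and the U3 protein gene Rrp9 ranged from -0.39 to -0.21 with overlapping rows.

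Of the 15 pre-60S genes, 8 were lower and 1 was higher, with a median log2 ratio of -0.43. Wdr12 (ENSMUSG00000026019, chr1:60071361-60098500), a subunit of the PeBoW complex that matures the large subunit RNA, showed the largest fall of all members. It was at 47.0, 61.2, 77.3 and 74.3 CPM in rows 11, 13, 15 and 17 and at 25.9, 23.0, 29.3 and 30.3 CPM in rows 12, 14, 16 and 18, a log2 ratio of -1.29. The other two subunits of the complex fell less, with Pes1 at -0.46 and Bop1, whose rows overlapped, at -0.38. Mrto4, which keeps a place on the pre-60S particle for the stalk protein, was at 82.5 to 139 CPM in the odd and 53.2 to 67.9 CPM in the even rows. Nop16, Rrp1b and the RNA methyltransferase gene Nop2 were lower at -0.85, -0.75 and -0.65, and Wdr74 and Ppan at -0.43 and -0.36. Ddx21 (ENSMUSG00000020075, chr10:62580247-62602298), a nucleolar RNA helicase, went the other way, at 163, 155, 167 and 157 CPM in the even rows against 97.2, 118, 127 and 131 CPM in the odd rows. Its lowest even row exceeded its highest odd row, and its log2 ratio of 0.39 was the highest of the module. Gnl3 (nucleostemin), Rrp15, Ebna1bp2, Nip7 and Noc2l overlapped, from -0.59 to -0.23.

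Npm1 (ENSMUSG00000057113, chr11:33152498-33164142) and Ncl (ENSMUSG00000026234, chr1:86344719-86359455) encode nucleophosmin and nucleolin, the abundant phosphoproteins of the nucleolus, and were the members with most UMIs. UMIs count molecules read from the 5′ end and do not grow with transcript length. Npm1 was at 1221, 1695, 1901 and 2025 CPM in the odd rows and at 991, 1000, 1004 and 951 CPM in the even rows. Ncl was at 536, 737, 834 and 894 CPM and at 466, 457, 434 and 459 CPM. Both were nearly level over the even rows and spread over the odd rows with the low in row 11, with log2 ratios of -0.85 and -0.78. Without this pair the ratio of the sums was -0.60.

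Polr1b, the second-largest subunit of RNA polymerase I, overlapped at 16.9 to 26.7 CPM in the odd and 15.5 to 20.8 CPM in the even rows. Mybbp1a, a nucleolar regulator of ribosomal RNA transcription, was lower in the even rows, at 104 to 126 CPM against 135 to 207 CPM. Srm (spermidine synthase, ENSMUSG00000006442, chr4:148591513-148594619) was at 157, 211, 238 and 231 CPM in the odd rows and at 105, 100, 107 and 103 CPM in the even rows. Odc1, the ornithine decarboxylase that feeds it, was at 104 to 144 and 54.2 to 73.1 CPM. Both polyamine genes were thus about 2 to 1 between the sets, with log2 ratios of -1.08 and -0.96. Of the other 5 members, C1qbp (a mitochondrial matrix protein), Mettl1 (the tRNA m7G methyltransferase) and the import receptor gene Ipo4 were lower at -1.03, -0.88 and -0.45, whereas Ifrd2 and the transcription factor gene Tfap4 overlapped at -0.97 and -0.55.

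**Figure D2:**
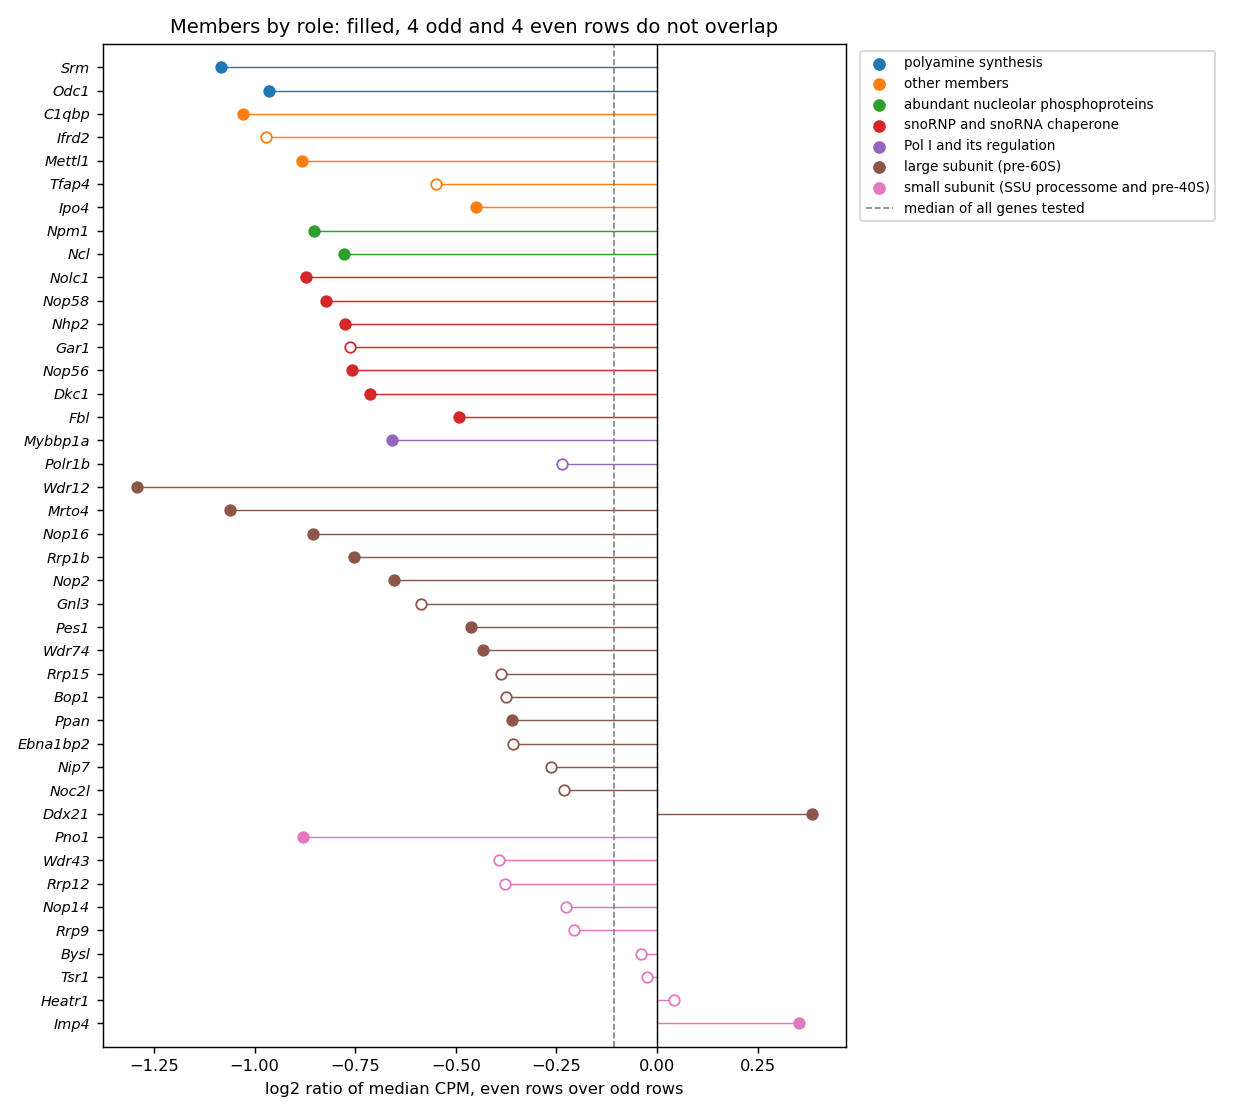
Each line gives the log2 ratio of the median CPM, even over odd rows, of 1 member, coloured by role, with filled points where the 4 even and 4 odd rows do not overlap. The range runs from -1.29 for Wdr12 to 0.39 for Ddx21, and 39 of 42 members lie below 0.

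Of 94 ribosome assembly genes outside the list, 26 (27.7%) were lower and 3 higher in the even rows, with a median log2 ratio of -0.31. The difference from the members was not tested. Over the 6745 genes tested 35.8% were lower and 26.7% higher, to be set beside this and the counts that follow. The lower share of the 94 genes was below that of all genes. The cytosolic ribosomal protein genes, whose products the members assemble, went the other way, with 49 of 81 higher and 8 lower. Their UMIs made up 17.7 to 20.1% of the total in the odd rows and 22.3 to 24.1% in the even rows. All 12 chaperonin genes, 15 of 20 purine and pyrimidine synthesis genes and 12 of 13 nuclear transport genes were lower without overlap, and so were all 20 G2/M and 18 of 20 S phase genes. Myc itself overlapped, at 133 to 211 CPM in the odd and 165 to 210 CPM in the even rows. Its antagonist gene Mxd4 was at 71.5 to 80.6 CPM in the odd and 145 to 235 CPM in the even rows.

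The second comparison asked where within the odd rows the members were high. Cells were divided by the first gene whose limit they met, in the order Cd79a (2 UMIs), Cst3 (5 UMIs), Rag1 (1 UMI) and Ikzf2 (2 UMIs), and the remaining cells made the fifth group. The members were highest in the Rag1 group, intermediate in the Ikzf2 group and in the remaining cells, lower in the Cst3 group and lowest in the Cd79a group. The Rag1 group expressed Dntt at 683 to 861 CPM and Ptcra at 119 to 157 CPM, genes of early thymocytes, and Cd8b1 at 253 to 515 CPM. Dntt was not particular to it, at 517 to 730 CPM in the remaining cells and 276 to 329 CPM in the Ikzf2 group. The Ikzf2 group expressed Tnfrsf9 at 155 to 186 CPM and Egr2 at 30.7 to 40.9 CPM, genes induced by receptor signalling, and Trav11 at most at 1.70 CPM. The Cd79a group had Cd79b at 735 to 950 CPM, and the Cst3 group had H2-Aa at 5912 to 8923 CPM and Xcr1 at 98.5 to 123 CPM. Among these cells 556 met more than 1 limit, so the Cd79a, Cst3 and Rag1 groups hold cells with transcripts of another type.

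In the 418 cells of the Rag1 group the members summed to 9089, 9269, 9968 and 9787 CPM in rows 11, 13, 15 and 17. The 1106 cells of the Ikzf2 group gave 6405, 6898, 7408 and 7090 CPM, and the 943 remaining cells 7049, 7918, 8873 and 8215 CPM. The Rag1 group was the highest in each of the 4 rows, and the remaining cells stood above the Ikzf2 group in each row. The 972 cells of the Cst3 group gave 4219, 5619, 5583 and 6143 CPM, and the 810 cells of the Cd79a group 2672, 3149, 3417 and 5297 CPM. Row 17, with 58 Cd79a cells, was the highest of that group by far. With cells past more than 1 limit left out, the Cd79a group (503 cells) was at 3012 to 4192 CPM and the Cst3 group (835 cells) at 4050 to 4907 CPM. The Rag1 group (306 cells) was then at 9029 to 10251 CPM. The Ikzf2 group and the remaining cells overlapped in range, and so did the Cst3 and Cd79a groups.

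By CPM pooled over the odd rows, 36 of the 42 members were highest in the Rag1 group. Another 4 were highest in the remaining cells (Nop2, Nop14, Nip7 and Ppan) and 2 in the Ikzf2 group (Heatr1 and Ddx21). By the same pooled CPM the Cd79a group was the lowest for 40 members and the Cst3 group for Gnl3 and Odc1. Npm1 had medians of 2715 CPM in the Rag1 group, 2182 CPM in the remaining cells, 1819 CPM in the Ikzf2 group, 1393 CPM in the Cst3 group and 921 CPM in the Cd79a group. Srm had the same order, at 319, 284, 189, 175 and 111 CPM. For Srm the step between the remaining cells (246 to 360 CPM) and the Ikzf2 group (170 to 221 CPM) was clear of overlap. Ddx21 was nearly flat among the T lineage groups, at 128 CPM in the Rag1, 143 CPM in the Ikzf2 and 139 CPM in the remaining cells. Odc1 was at 121 CPM in the Cd79a group, above its 92.3 CPM in the Cst3 group.

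The differences between the T lineage groups were shared by many members and small for each. No member was 1.5-fold higher or lower in every row between the Ikzf2 group and the remaining cells, where 1.40% of the 6767 genes tested were higher and 0.473% lower. None was between the Rag1 and Ikzf2 groups either, where 1.27% were higher and 6.53% lower, while the median log2 ratio was 0.34 over the members and -0.05 over all genes. Between the Rag1 group and the remaining cells (0.177% higher and 3.25% lower) and between the Cst3 and Ikzf2 groups (7.65% higher and 7.12% lower) no member passed. Between the Cd79a and Ikzf2 groups 9 of 41 members were lower in every row, against 20.1% of all genes, a share near the background, and none was higher, against 6.46%. These 9 were Gar1, Nop58, Nolc1, Nhp2, Rrp15, Wdr12, Ifrd2, Tfap4 and Ebna1bp2.

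The mitotic genes were set beside the group levels. The G2/M list had group medians of 5829 CPM in the Rag1 group, 4015 CPM in the remaining cells, 3575 CPM in the Ikzf2 group, 2728 CPM in the Cst3 group and 864 CPM in the Cd79a group, which is the order of the members. Median UMIs per cell were 3685 to 15274 in the Rag1, 9963 to 11425 in the Cst3, 5374 to 6454 in the Cd79a and 4611 to 5962 in the Ikzf2 group and 2859 to 7120 in the remaining cells. The part of mitosis, depth and cell type in the group levels was not tested. The G2/M limit used next was not matched for depth. With cells of at least 2 G2/M UMIs left out, the Ikzf2 group was at 4661 to 5239 CPM and the remaining cells at 4072 to 4771 CPM. The median log2 ratio of Ikzf2 over remaining cells turned from -0.21 to 0.18. In row 15 the Ikzf2 group stayed below the remaining cells (4739.5 against 4771 CPM). In rows 15 and 17 the Poisson intervals of these groups met. The Rag1 group then kept 19, 7, 7 and 5 cells in rows 11, 13, 15 and 17, under the minimum of 20 cells set for a row. Their sums were 3741, 4256, 3569 and 4636 CPM, below the Ikzf2 group in each row (5022, 5239, 4739.5 and 4661 CPM), so the Rag1 group was not the highest there, and in rows 13 and 17 the Poisson intervals of the pair met. The Cst3 and Cd79a groups were at 3483 to 3970 and 2343 to 3374 CPM, so the Cd79a group remained below the Ikzf2 group.

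**Figure D3:**
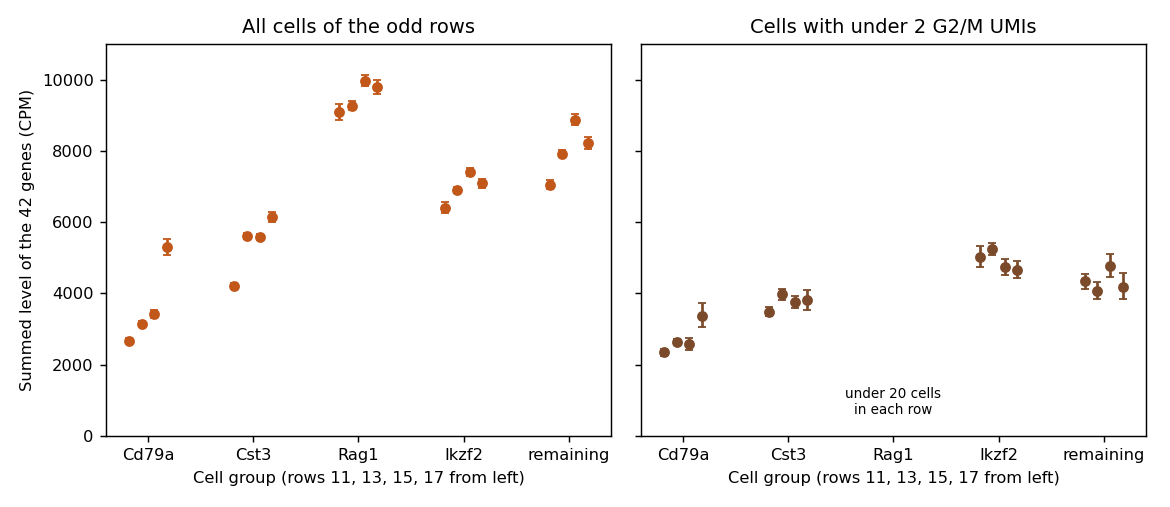
Points give the summed level of the 42 genes in CPM in rows 11, 13, 15 and 17 from left to right within each cell group of the odd rows, with exact Poisson 95% intervals, for all cells on the left and for cells with fewer than 2 G2/M UMIs on the right. The Rag1 points lie at 9089 to 9968 CPM on the left, and on the right the Ikzf2 points lie at 4661 to 5239 CPM and the remaining cells at 4072 to 4771 CPM.

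The third comparison asked whether the members vary together from cell to cell within the even rows. They did: cells chosen for a high share of 21 of the members also had a high level of the other 21. The list in alphabetical order was dealt alternately into 2 sets of 21, the cells of each row were ranked by the share of 1 set, and the other set was measured in the top and bottom 25% of cells. Ranked by the first set, the second rose from 1005 to 1989 CPM in row 12, from 1017 to 1934 CPM in row 14, from 864 to 2337 CPM in row 16 and from 869 to 2016 CPM in row 18. Ranked by the second set, the first was at 1850 to 2181 CPM in the bottom and 3714 to 4288 CPM in the top cells. The 8 log2 ratios were 0.77 to 1.44, with a median of 1.03, and no Poisson interval of a top group met that of its bottom group.

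All 42 members were higher in the top than in the bottom cells in every even row, measured as log2(CPM + 10), a scale that understates the change of low genes. Of them, 29 passed 1.5-fold in all 4 rows, 26 of these among the 39 members with at least 20 CPM in the even rows. The other 3, Mettl1, Rrp12 and Polr1b, were below that level, and their row values rest on few UMIs. Of the other 6252 genes, 0.976% were higher when ranked by the first set and 0.864% by the second. No member was lower, where 0.208% and 0.144% of the other genes were. Srm had the largest differences, with log2 ratios of 1.22, 1.601, 2.41 and 2.20 in rows 12, 14, 16 and 18. Mettl1, Mybbp1a, Ipo4 and Tfap4 followed, with medians from 1.57 to 1.36, and among these only Mybbp1a acts in ribosomal RNA synthesis. Imp4 was the weakest, at 0.05, 0.02, 0.30 and 0.31, and is also a member that was higher in the even rows. Ddx21, the other such member, passed in all rows with a median of 0.99.

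The 13 members that did not pass were Imp4, Pes1, Nip7, Npm1, Wdr12, Nop14, Wdr74, Pno1, Rrp1b, Heatr1, Ncl, Bysl and Odc1. The abundant Npm1 and Ncl had medians of 0.57 and 0.86, below the median of 1.00 over all members. By role, all 7 snoRNP genes passed, as did both genes of RNA polymerase I and its regulation and all 5 of the other members. The small subunit genes passed in 4 of 9 cases (Rrp9, Tsr1, Wdr43 and Rrp12). Row 16, the smallest, gave the highest ratio for 26 members. Top cells had more UMIs (medians of 3439 to 3997) than bottom cells (3072 to 3565). Ranked within 10 bins of the UMI count, the median ratio was 0.96, and after thinning every cell to 2000 UMIs it was 0.80.

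**Figure D4:**
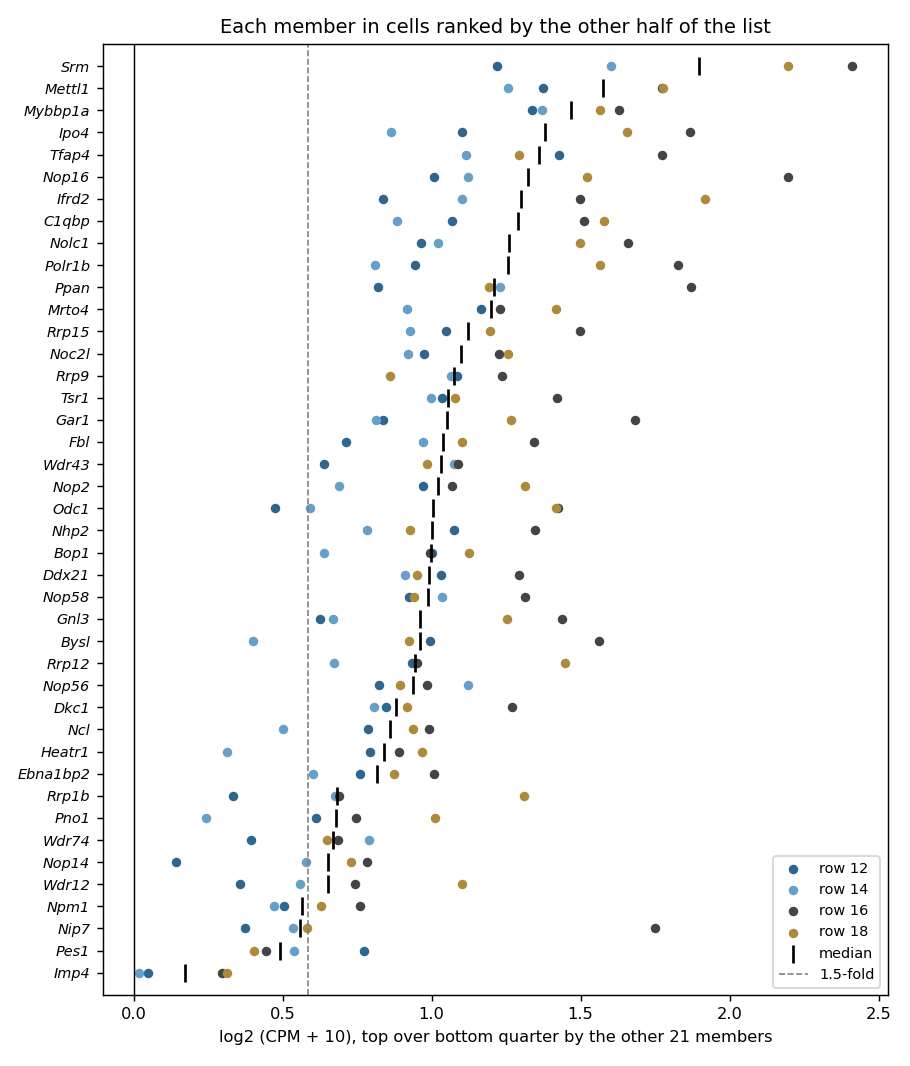
Each row shows 1 member, with its log2 ratio of CPM + 10 between the top and bottom 25% of cells ranked by the 21 members of the other set, in even rows 12, 14, 16 and 18 (points), and the median (bar). All points lie above 0, and Srm (1.22 to 2.41) and Imp4 (0.02 to 0.31) mark the ends.

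The last comparison asked which other genes go with the module in the even rows. Cells were ranked by all 42 members, which set the members' own sums at 1816 to 2158 CPM in the bottom and 6727 to 7357 CPM in the top 25%. Of 6252 other genes, 99 (1.58%) were at least 1.5-fold higher in the top cells of every row and 19 (0.304%) were lower. The higher genes held nucleotide synthesis, chaperonin and further ribosome assembly genes, and the lower genes held interferon-induced genes. The ribosomal protein genes held none of either kind.

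The 15 highest genes by the smallest of their 4 differences were Atad3a, Pprc1, Mthfd1, Rcl1, Snhg4 (the row ENSMUSG00000117869), Apex1, Nefh, Nme1, Ppp1r14b, Pus1, Hspd1, Nle1, Grwd1, Prmt3 and Trmt61a. Atad3a, a mitochondrial inner membrane ATPase, was at 17.96, 17.6, 11.2 and 6.92 CPM in the bottom and 59.96, 60.1, 66.3 and 60.3 CPM in the top cells of rows 12, 14, 16 and 18. Nme1, a nucleoside diphosphate kinase and the most abundant of the 15, rose from 240, 238, 223 and 177 CPM to 519, 492, 617 and 548 CPM. Top and bottom cells of both genes were clear of each other in all rows. Pprc1, a coactivator of mitochondrial biogenesis, Mthfd1 of the folate cycle and Apex1, a DNA repair endonuclease, had median log2 ratios of 1.37, 1.34 and 1.37. Rcl1, Nle1 and Grwd1 are themselves ribosome assembly genes outside the list, at 1.25, 1.16 and 1.28. Pus1 and Trmt61a modify tRNA, at 1.15 and 1.19.

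By list, 9 of 18 purine and pyrimidine synthesis genes were higher, with a list median of 0.73. They included Cad, which starts pyrimidine synthesis, at 1.25 and Gart of the purine pathway at 1.02. All 12 chaperonin genes were above 0 in every row and 3 passed, Hspd1 (mitochondrial Hsp60) at 1.20 among them. Of 93 other ribosome assembly genes 12 passed and 74 were above 0 in every row, where 21.7% of all other genes were, and their median was 0.50. None of the 13 tested genes on the list of the RNA polymerase I machinery passed (median 0.26), nor did any of 81 ribosomal protein genes (median 0.02). Cd3eap, which encodes a polymerase I subunit but is not on that list, was higher at 0.79, and is named after its value was seen. Of 7 amino acid and glucose transporter genes only Slc7a5, the light chain of a large neutral amino acid transporter, passed, at 1.51, and its partner Slc3a2 was at -0.14. Translation factors passed in 3 of 38 cases (Eif4a1, Eif5a and Eef1e1), nuclear transport genes in 2 of 10 (Ran at 0.72) and S phase genes in 2 of 15 (Mcm2 and Mcm3 at 0.94 and 0.85).

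No gene of the Myc network passed. Myc had log2 ratios of 0.20, 0.14, 1.07 and 0.91 in rows 12, 14, 16 and 18, high in rows 16 and 18 and low in the other two. Mxd4, which encodes a Max partner that opposes Myc, was at -0.53, -0.81, -1.43 and -1.17 and missed the limit in row 12 alone. The iNKT1 effector genes had a median of 0.01 over 17 genes with none past the limit. Klrb1c was at -0.22 and Ccl5 at -0.10. The G2/M genes, which were high with the members in the odd rows, had a median of -0.45 over 8 genes tested here. Of these, 5 were below 0 in every row, where 20.1% of all other genes were, and none was past the limit. The S phase genes went the other way, with 10 of 15 above 0 in every row, where 21.7% of all other genes were. Their sums were 867 to 1000 CPM in the bottom and 1177 to 1521 CPM in the top cells.

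All 12 interferon-induced genes tested were below 0 in every row, where 20.1% of all other genes were, and 6 were lower past the limit, with a list median of -0.82. Irf7, the transcription factor that amplifies the response, fell from 128, 122, 138 and 164 CPM in the bottom to 68.1, 51.4, 34.7 and 63.4 CPM in the top cells. Ifit1 and Ifit3 had medians of -1.08 and -1.20. Outside the list, Pmepa1 and Ypel3 were the lowest genes by the same measure, at -1.27 and -1.12, and the chemokine receptor gene Ccr2 was at -0.69. With 745 cells of at least 10 interferon UMIs left out, 80 genes were higher and 8 lower, 6 of them shared with the 19.

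The counts of other genes depended on row and setting. Without row 14, 45 genes were lower, and without row 12, 30. Among the 695 even-row cells with fewer than 2 S phase and G2/M UMIs, 21 genes were lower, 0 of them among the 19. After thinning to 2000 UMIs 41 genes were higher, and at 2-fold 9 were higher and 2 lower. Myeloid marker sums were 659 to 2602 CPM in the bottom and 655 to 867 CPM in the top cells, and B cell marker sums 285 to 331 and 188 to 261 CPM. Their part in the result was not tested.

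**Figure D5:**
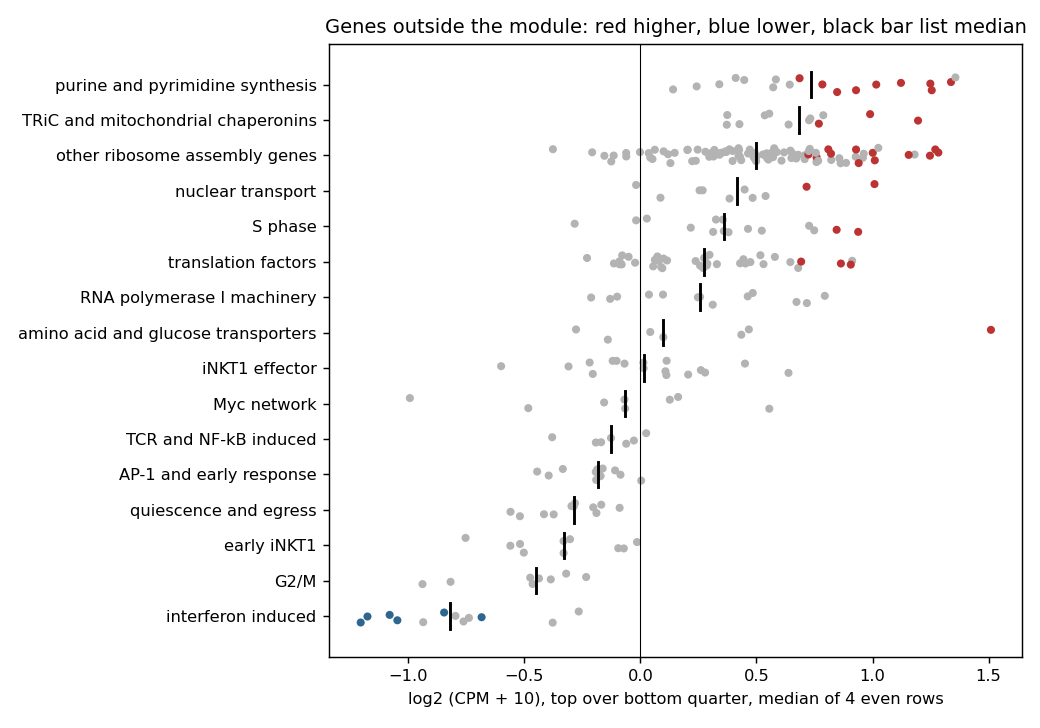
Each point is 1 gene outside the module with at least 20 CPM in the even rows, placed by its median log2 ratio of CPM + 10 between the top and bottom 25% of cells by the share of the 42 members, in red where it was at least 1.5-fold higher in all 4 rows and in blue where lower. Black bars mark list medians, from -0.82 for the interferon-induced genes to 0.73 for purine and pyrimidine synthesis.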

How the data were processed

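The deposited matrix held raw UMI counts per gene and hashtag, which the authors made with Cell Ranger 6.0.0 on mm10, per the study's methods. The deposited counts were used as they stand, from 1 pooled RNA library with its hashtag library. Barcodes were kept with at least 1000 genes, at most 5% mitochondrial UMIs and at least 80% of at least 10 hashtag UMIs on 1 of the 8 rows, which leaves out barcodes with hashtags of several rows. No doublet caller was run, so doublets within a row remain. This left 10007 of 12147 barcodes past the first 2 limits. CPM were summed counts over all gene counts of a row or group, and 20 CPM was the limit for a gene to be tested. Row totals were 2283162 to 14601545 UMIs.

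Members and gene lists were chosen with earlier results of these data known. Members were named by role and by their non-overlapping rows, and other genes as the 15 highest and 15 lowest by the smallest of 4 row differences. With no row assigned to a population there was no test, and calls were values in all rows past 1.5-fold on log2(CPM + 10) or without overlap. Intervals are exact Poisson 95% intervals, which cover counting error only. The call rule for ranked cells was tested on simulated data. Promoters were RefSeq GRCm38.p6 windows matched by symbol, and the stretches shown were checked against the genome. Alternatives changed the cell limits, depth, totals, pseudocount, fold, ranking and rows. Chosen after seeing the data were those that leave out interferon cells, those between rows that leave out Cd79a and Cst3 cells or use G2/M UMIs, and those that change depth or leave out marker cells for the 2 member sets. Python 3.11.15 with numpy 2.4.6, scipy 1.17.1 and pandas 2.3.3 was used.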

Additional observations from a re-analysis of the deposited data

Results flagged for a closer look

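Outside the 8 hashtag rows in use, the other 12 rows of the matrix held 25599 hashtag UMIs, 0.0734% of all hashtag UMIs. The highest of these rows held 12255, and whether it carries signal was not tested.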

How the results depend on the processing

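Of 119 recomputed values 76 stayed within their counting error or within 1.5 times of the count, and 3 turned sign. The even over odd log2 ratio of the sums (-0.68) was -0.29 without cells of over 4000 genes (with 9 members lower), -0.54 with a 95% hashtag limit, -0.60 without Ncl and Npm1, -0.64 with assembly factors alone, -0.60 with ribosomal protein and mitochondrial UMIs left out of the total, -0.47 after thinning and -0.26 for the per-cell median. Alternatives chosen after seeing the data gave -0.90 without Cd79a and Cst3 cells (37 members lower, 1 higher, against 45 and 26.7% of all genes). They gave 0.17 without cells of at least 2 G2/M UMIs (3 lower, 12 higher, against 19.6 and 20.3%). The ratio was 0.13 after thinning in cells with no G2/M UMI before thinning. Neither G2/M limit was matched for depth. Leaving out 1 row each gave -0.76 to -0.59.

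The log2 ratio of the Ikzf2 group over the remaining cells (-0.21) was -0.29 without cells of over 4000 genes, -0.27 with the 95% hashtag limit and 0.18 without cells of at least 2 G2/M UMIs. The median ratio between the sets of 21 (1.03) was 0.80 after thinning.

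The counts of other genes higher and lower (99 and 19) were 150 and 36 at a pseudocount of 1, 20 and 4 at 50, 43 and 11 with a 50 CPM limit, 9 and 2 at 2-fold, 59 and 12 with the cells cut into 3 parts and 172 and 65 with 10 parts. They were 41 higher after thinning, 35 lower with ribosomal protein and mitochondrial UMIs left out of the total, and 8 lower without interferon-high cells. Among the 695 even-row cells with fewer than 2 S phase and G2/M UMIs 63 were higher, 18 of them shared with the 99. In these 695 cells 21 were lower, 0 of them shared with the 19. Leaving out 1 row each gave 104 to 139 higher and 23 to 45 lower. The causes of these shifts were not tested. No paired analysis was possible because no row is paired with a population. Rrp12, Mettl1 and Polr1b rest on few UMIs per row.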
